A study of Canis lupus familiaris with 36 samples.

Results

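FOXP3 and IL10 are 2 of the 44 immune genes on a custom NanoString nCounter panel of 48 genes that was used to profile canine oral squamous cell carcinoma (OSCC). They were taken by name as the regulatory genes of the panel and were followed across 34 tumors and 2 samples of normal oral mucosa. The nCounter assay counts single transcripts by the color code of their probe and needs no amplification step. The dogs were pet patients with naturally arising disease, 33 dogs gave the 36 samples, and 1 dog gave both a tumor and a mucosa sample. The labels give the tissue of each sample and a patient number, and the mucosa samples are labelled as mucosal stroma. They give no treatment, breed or age, and they do not show which samples came from the same dog. RNA came from archived frozen or formalin-fixed tissue, and which of these a sample was is not given in the sources used here. The panel holds no epithelial gene, so the tissue labels could not be checked against markers of epithelium.

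FOXP3 is the transcription factor that establishes and maintains regulatory T cells, the CD4+ T cells that restrain other immune cells. IL10 is a secreted cytokine that dampens antigen presentation and inflammatory cytokine production, and it is made by regulatory T cells but also by macrophages, dendritic cells, B cells and other T cells. In carcinomas, regulatory T cells are usually found among the infiltrating T cells, and they commonly carry CTLA4 and ICOS at their surface. Because the RNA came from whole tissue, a lower value of either gene in a sample cannot be told apart between fewer expressing cells and less RNA per cell.

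Values are log2 of the housekeeping-normalized counts that the authors deposited, and a difference of 1 on this scale is a doubling. The counts behind them were recovered from the deposited values, and they summed over the 48 genes to between 27092 and 665587 in the tumors and to 117883 and 149876 in the mucosa samples. Positive controls, which are spiked-in sequences of known amount, split the samples into batches by how the second compared with the third. The first batch held 7 tumors (patients 1 to 7) and both mucosa samples, and the later batch held 27 tumors. Both mucosa samples lay in the first batch, so values within that batch are given beside those over all samples.

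FOXP3 was higher in tumors than in normal mucosa in most samples. Across the 34 tumors its log2 value was lowest at 5.89 (patient 15), had a median of 7.35 and was highest at 9.74 (patient 19), with a mean of 7.50 ± 0.98 (SD, n = 34). The mucosa of patient 8 had a FOXP3 value of 6.18 and that of patient 9 a value of 5.15. FOXP3 exceeded both mucosa values in 31 of the 34 tumors and was under both in none, and the other 3 tumors, from patients 6, 15 and 18, fell between the mucosa samples.

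The FOXP3 counts behind these values were small in the mucosa and in the lowest tumors. The mucosa samples held 60 and 33 FOXP3 counts, which was 3.65 and 1.74 times the negative-control background of their sample (the mean of the negative controls plus 2 SD). The tumor of patient 15 held 33 counts, and its exact 95% Poisson interval of 5.35 to 6.38 on the log2 scale covered the values of the tumors of patients 18 and 6 (6.05 and 6.12). In the tumor of patient 6, 48 FOXP3 counts stood only 1.05 times above a background of 45.8 counts, the closest approach to background of any sample. At the upper end, the tumor of patient 19 held 511 counts, with an interval of 9.61 to 9.87, above the intervals of the tumors that followed it, of patient 34 (9.10 to 9.29) and patient 33 (9.05 to 9.25), whose own intervals overlapped. These intervals cover counting error only.

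**Figure D1:**
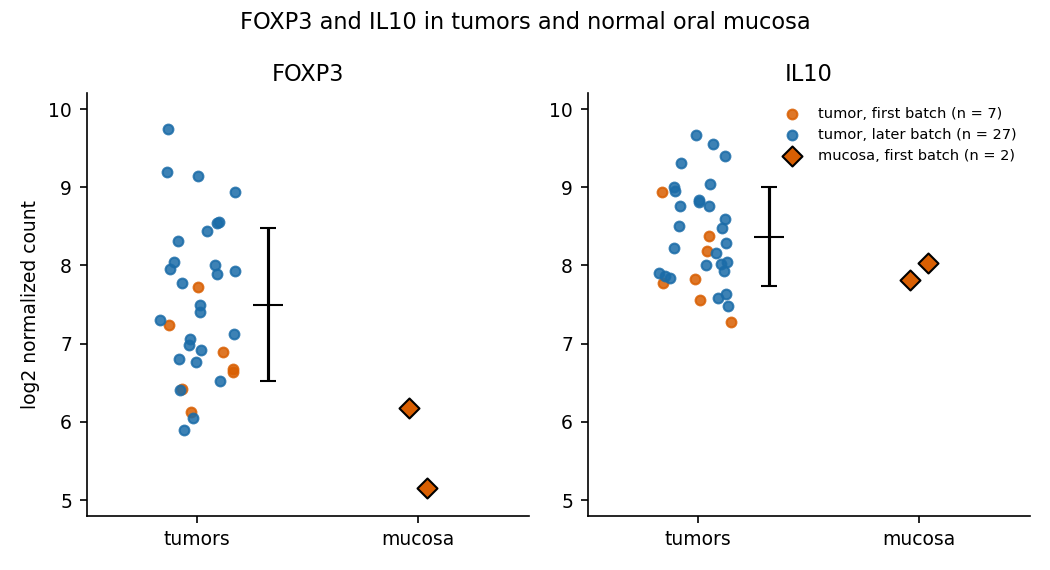
Log2 normalized count of FOXP3 (left) and IL10 (right) in each of 34 tumors and 2 mucosa samples, with the mean and SD of the tumors beside the points and the positive-control batch in color. FOXP3 exceeded both mucosa values in 31 of 34 tumors, and IL10 did so in 21 of 34.

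IL10 varied less between tumors and overlapped with the mucosa. Its tumor values ran from 7.28 (patient 2) through a median of 8.26 to 9.67 (patient 28), with a mean of 8.37 ± 0.63 (SD, n = 34). The mucosa of patient 8 had an IL10 value of 7.81 and that of patient 9 a value of 8.03. These values lay inside the range of the tumors, of which 21 were above both mucosa samples and 6 below both. The highest and lowest tumors were 5.23-fold apart for IL10 and 14.4-fold apart for FOXP3. Ordered by the SD across tumors, FOXP3 was at place 25 and IL10 at place 40 of the 44 immune genes, so IL10 was among the least variable genes of the panel. IL10 counts were between 3.30 and 56.3 times background in the tumors.

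The comparison of tumor with normal mucosa asks which immune genes differ in the tumor tissue, and it was tested with limma over all 44 immune genes. FOXP3 was higher in tumors by 1.83 (standard error 0.70, limma adjusted p = 0.0368), and IL10 differed by 0.45 (standard error 0.49, limma adjusted p = 0.480, 95% interval -0.55 to 1.45). An adjusted p below 0.05 with a higher value in tumors was therefore reached by 1 of the 2 genes, against 31.8% of all immune genes (14 of 44). The mean was higher in tumors for both genes, as it was for 77.3% of the immune genes. Neither gene was above both mucosa samples in every tumor, which 13.6% of the genes were (6 of 44). Ordered by the difference, FOXP3 was at place 17 and IL10 at place 29. An exact permutation test over the 630 ways to choose 2 of 36 samples, two-sided, gave p = 0.0159 for FOXP3 and p = 0.351 for IL10.

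The difference of FOXP3 was smaller within the first batch. There it was 1.15, with 6 of 7 tumors above both mucosa samples, and it did not reach the threshold (exact permutation test, two-sided, p = 0.0833, smallest p possible 0.0278; limma adjusted p = 0.106), which 18.2% of the immune genes did there by limma. With batch as a term in the limma fit over all samples the estimate was the same, 1.15, with a limma adjusted p of 0.263, and 13.6% of the immune genes were called higher. For IL10 the difference in the first batch was 0.07 (exact permutation test, two-sided, p = 0.861), with 3 of 7 tumors above both mucosa samples and 3 below both. Among the tumors alone, FOXP3 was higher in the later batch than in the first by 0.86 (permutation test, two-sided, p = 0.0357, adjusted over 5 quantities 0.0894) and IL10 by 0.48 (p = 0.0752, adjusted 0.114). The part of the batch in the pooled FOXP3 difference was not tested further.

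The FOXP3 call also rested on each mucosa sample and on the scale. The FOXP3 difference was 2.35 without the mucosa of patient 8 (limma adjusted p = 0.0690) and 1.32 without that of patient 9 (limma adjusted p = 0.374). The median of all 44 immune genes was itself higher in the tumors than in the mucosa, by 1.21. When every sample was rescaled to an equal median over these genes, FOXP3 was higher by 0.63 (limma adjusted p = 0.292) and IL10 changed sign, to -0.76 (limma adjusted p = 0.152). On that scale 11.4% of the immune genes were called higher in tumors, and neither FOXP3 nor IL10 was among them.

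**Figure D2:**
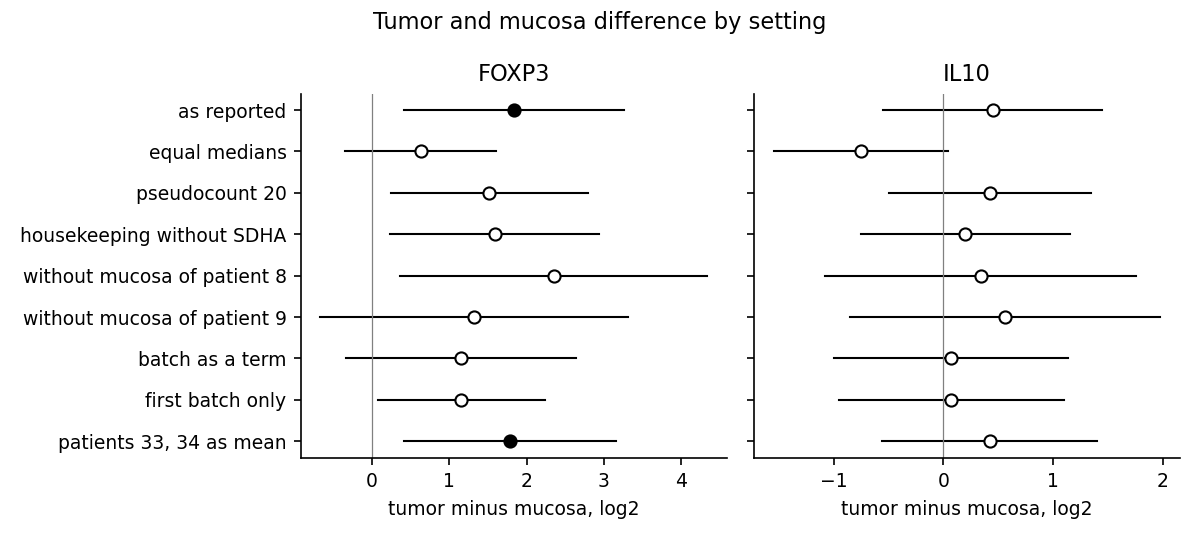
Tumor minus mucosa difference (log2) of FOXP3 (left) and IL10 (right) with its 95% interval from limma as reported and under 8 of the processing settings; filled points have an adjusted p below 0.05, and the horizontal axes differ between panels. The FOXP3 estimate was above 0 in all settings shown. Of these, it was called as reported and with patients 33 and 34 averaged, and the settings not drawn left it called. IL10 lay below 0 with equal medians.

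T cell genes are given beside FOXP3 because FOXP3 is expressed mainly in T cells. CD3e, a subunit of the T cell receptor complex, had a mean log2 value of 10.28 in the tumors, with an SD of 1.39 (n = 34), against 8.98 in the mucosa of patient 8 and 6.85 in that of patient 9. It differed by 2.36 (limma adjusted p = 0.0535). CD3e passed with patients 33 and 34 averaged (2.25, limma adjusted p = 0.0383). It also passed on a housekeeping scale without RPL30 (2.44, limma adjusted p = 0.0345), and in no other setting. On the values as reported, none of the 5 T cell genes (CD3e, CD8a, CD27, CD28 and IL2) passed the limma test. Their median difference was 2.12, against 0.91 over all 44 immune genes. The test was passed, with a higher value in tumors, by 3 of the 6 checkpoint genes, 4 of the 6 costimulation genes and 2 of the 9 myeloid and inflammation genes, against 14 of all 44 immune genes (31.8%).

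Taken relative to CD3e, FOXP3 was not higher in the tumors. The log2 value of FOXP3 minus that of CD3e was -2.78 ± 0.95 (SD, n = 34) in tumors, from -4.99 (patient 34) to -0.14 (patient 19), and was -2.80 in the mucosa of patient 8 and -1.70 in that of patient 9. The difference of -0.53 did not pass an exact permutation test (two-sided, p = 0.417). Its sign turned, to 0.013, with the mean of CD3e, CD27 and CD28 as reference, and to 0.024 without the mucosa of patient 9.

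IL10 relative to CD3e was lower in the tumors, at -1.91 ± 1.14 (SD, n = 34), than in the mucosa, at -1.17 (patient 8) and 1.18 (patient 9). The tumor values ran from -4.88 (patient 34) to 0.74 (patient 15), and every tumor lay below the mucosa of patient 9. The difference of -1.91 had an exact permutation p of 0.0365 (two-sided, adjusted over the 2 genes 0.0730), and so it did not pass after adjustment. In the first batch it was -1.27 (exact permutation p = 0.111), and without the mucosa of patient 9 it was -0.74 (exact permutation p = 0.429).

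**Figure D3:**
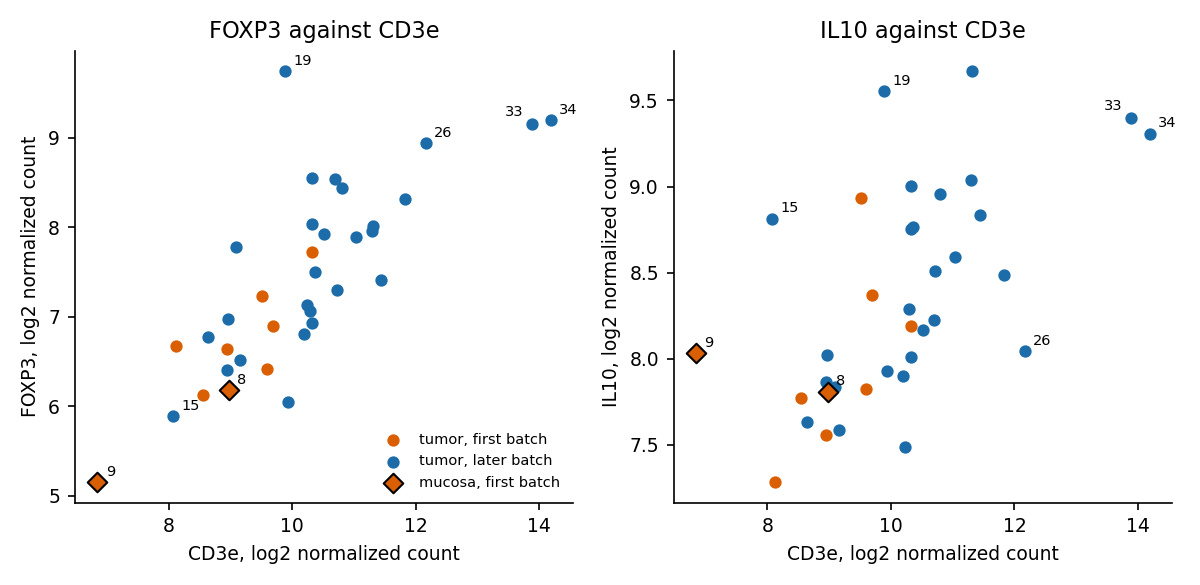
Log2 normalized count of FOXP3 (left) and IL10 (right) against that of CD3e in 34 tumors (circles) and 2 mucosa samples (diamonds), with patient numbers at samples named in the text. Spearman's rho across tumors was 0.77 for FOXP3 and 0.63 for IL10, and the tumor of patient 19 stood above the others at its CD3e level in the left panel.

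FOXP3 and IL10 rose and fell together across the tumors. Spearman's rho between them was 0.67 (permutation test, two-sided, adjusted p = 0.000212, n = 34) and Pearson's r was 0.65 (adjusted p = 0.000378), with p-values adjusted over the 85 relations of the 2 genes with each other and with the other 42 immune genes. Without the 2 tumors farthest from the median of FOXP3, rho was 0.61 and r was 0.55. Within the batches rho was 0.57 (7 tumors) and 0.64 (27 tumors). Neither gene followed the total count of the sample (rho = -0.02 for FOXP3, permutation p = 0.928, and rho = -0.05 for IL10, p = 0.786).

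In the individual tumors, 24 of 34 lay on the same side of the median for both genes and 10 on opposite sides. The 5 highest tumors for FOXP3 came from patients 19, 34, 33, 26 and 36, and the 5 highest for IL10 from patients 28, 19, 33, 34 and 31, so 3 were shared. The tumor of patient 15 combined the lowest FOXP3 value, 5.89, with an IL10 value of 8.81, at place 10. The tumor of patient 26 went the other way, with FOXP3 at place 4 (8.94) and IL10 at 8.04, slightly below the IL10 median of 8.26. The exact 95% Poisson interval of this IL10 value, 7.62 to 8.44, covered that median. That tumor was one of the 2 with under 50000 counts, and its values rest on 95 FOXP3 and 51 IL10 counts. Without these 2 tumors rho was 0.68.

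**Figure D4:**
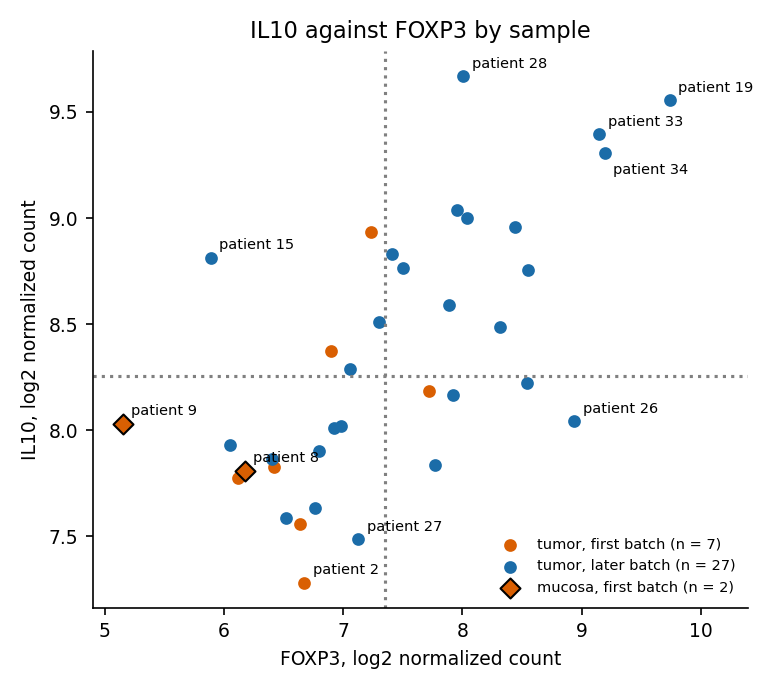
IL10 against FOXP3 (log2 normalized counts) in 34 tumors (circles, by positive-control batch) and 2 mucosa samples (diamonds), with the medians of the tumors as dotted lines. Of the tumors, 24 lay on the same side of both medians. The tumor of patient 15 combined the lowest FOXP3 value with IL10 above its median. That of patient 26 combined a high FOXP3 value with IL10 only slightly below its median.

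With CD3e as a covariate the relation between the 2 genes no longer passed the threshold after adjustment. The partial rho of FOXP3 and IL10 given CD3e was 0.37 (permutation p = 0.0309, adjusted over 9 partial relations 0.0696). It was 0.18 without the tumor of patient 19 and 0.47 without that of patient 15. On the equal-median scale the unadjusted relation of FOXP3 and IL10 was also near 0 (rho = 0.08, adjusted p = 0.810). The sample median of the 44 immune genes had a rho of 0.82 with FOXP3 and 0.74 with IL10 across tumors, and FOXP3 and IL10 are themselves among those 44 genes.

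Relations with the remaining immune genes were positive wherever they passed the test. FOXP3 was related to 20 of the 42 other genes and IL10 to 21, with 20 genes in common, and IL12 passed with IL10 only. These calls are by Spearman's rho. By Pearson's r FOXP3 was related to 24 genes, with GZMA, GZMB, IL12 and TNFSF14 in addition, and IL10 to 22, with CLEC4C and TNFSF14 in addition and without PRF1. With p-values adjusted over all 946 pairs of immune genes, FOXP3 had 20 of 43 relations called (46.5%) and IL10 19 of 43 (44.2%), against 25.4% of all pairs called positive and 0.74% called negative. TBX, the T helper 1 transcription factor, had the most, 24. The median gene had 12.

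T cell genes were among the closest to both. FOXP3 followed CD28 (rho = 0.78), CD3e (0.77), CD27 (0.72) and CD8a (0.63), and these 4 of 5 T cell genes passed, with a median rho of 0.72 over the list against 0.33 over all 42 genes. IL10 passed with the same 4 genes, at 0.65 for CD28, 0.63 for CD3e, 0.57 for CD8a and 0.53 for CD27, with a list median of 0.57 against 0.35 over all 42. IL2, the T cell growth factor, did not pass with either (0.14 with FOXP3 and 0.07 with IL10). Within the later batch, rho with CD3e was 0.70 for FOXP3 and 0.58 for IL10, and within the first batch it was 0.57 and 0.71. Pearson's r with CD3e was 0.73 for FOXP3 (0.80 without the 2 farthest tumors) and 0.59 for IL10 (0.65).

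The inhibitory receptors gave the highest values for FOXP3. CTLA4, which competes with CD28 for its ligands, had a rho of 0.84 with FOXP3 (adjusted p = 0.000142, permutation test), and PD-1, the inhibitory receptor of activated T cells, one of 0.82 (adjusted p = 0.000142). Without the 2 tumors farthest from the FOXP3 median these were 0.87 and 0.78, and in the later batch 0.82 and 0.80. In the first batch, of 7 tumors, the values were 0.75 for CTLA4 and 0.46 for PD-1. With IL10, CTLA4 had a rho of 0.59 and PD-1 one of 0.63. LAG3, an inhibitory receptor that binds MHC class II, had rho = 0.66 with each gene, and it was the closest checkpoint gene to IL10. PDCD1LG2, the second ligand of PD-1, passed with IL10 (0.60) and with FOXP3 (0.47). The other ligand of PD-1 is measured by 2 rows of the panel, PD-L1 and CD274. Neither passed with FOXP3 (0.17 and 0.05) or with IL10 (-0.08 and -0.16).

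Given CD3e, FOXP3 was still related to CTLA4 and PD-1. The partial rho was 0.53 with CTLA4 and 0.56 with PD-1 (permutation tests, adjusted p = 0.00621 for each). Without the 2 farthest tumors they were 0.54 and 0.37. With LAG3 and ICOS the partial rho of FOXP3 was 0.24 and 0.23, and neither passed (adjusted p = 0.247 for each). For IL10 the highest partial value was 0.39 with LAG3 (adjusted p = 0.0696), and those with PD-1 (0.29), ICOS (0.16) and CTLA4 (0.10) did not pass.

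Costimulatory genes divided into those that followed both and those that followed neither. ICOS, an inducible receptor of activated and regulatory T cells, had a rho of 0.77 with FOXP3 and 0.62 with IL10. CD40, a receptor of antigen-presenting cells, had values of 0.57 and 0.56, and ICOSLG, the ligand of ICOS, of 0.52 and 0.50. In the first batch the values for ICOSLG were -0.18 and -0.36, opposite in sign to those of the later batch. OX40, CD70 and TNFSF14 did not pass with either gene by rho, and TNFSF14 passed with both by Pearson's r (0.45 with FOXP3 and 0.44 with IL10). Among the 5 cytotoxic and NK genes, perforin (PRF1) passed with FOXP3 (0.66) and narrowly with IL10 (0.39, permutation test, adjusted p = 0.0480), and GZMA, GZMB, IFNg and NCR1 passed with neither by rho. By Pearson's r, GZMA (0.39) and GZMB (0.41) passed with FOXP3, and PRF1 did not pass with IL10 (0.37, permutation test, adjusted p = 0.0568).

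**Figure D5:**
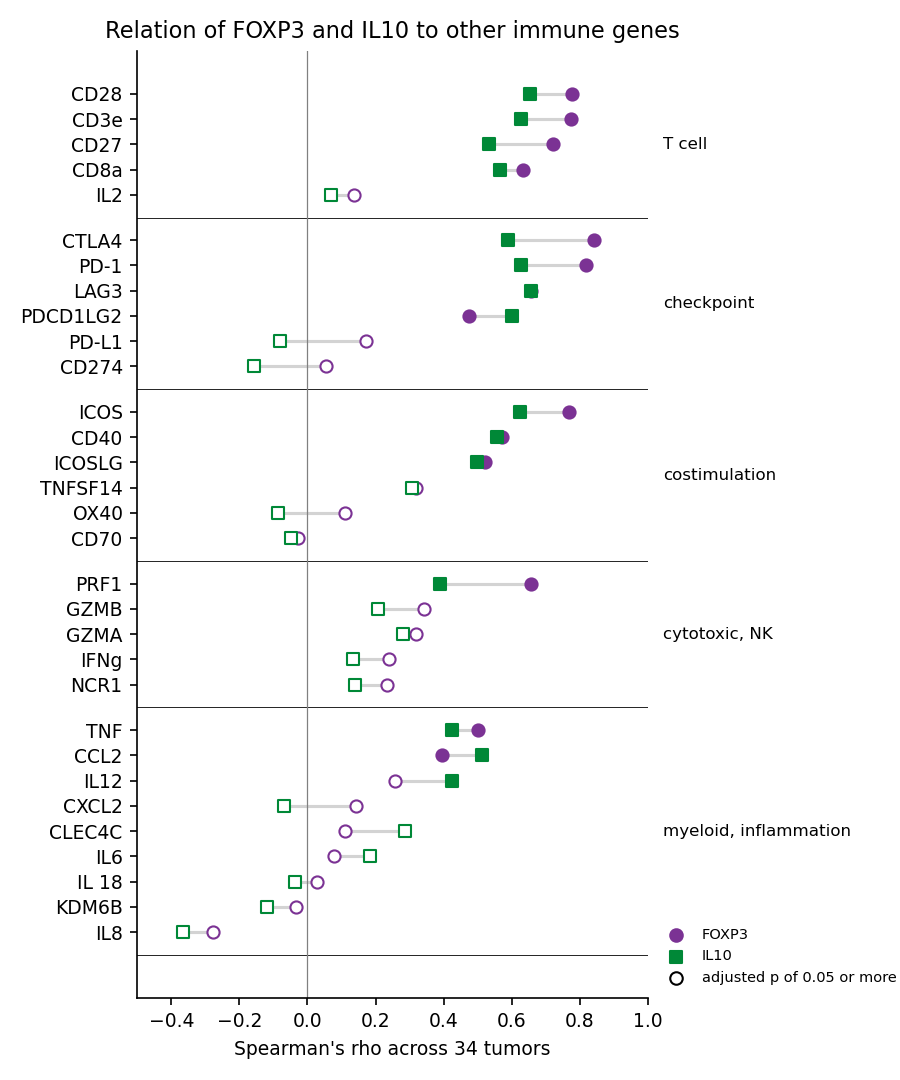
Spearman's rho of FOXP3 (circles) and IL10 (squares) with 31 other immune genes across 34 tumors, grouped by list; open symbols have an adjusted p of 0.05 or more. T cell and checkpoint receptors lie furthest to the right, up to 0.84 for CTLA4 with FOXP3, and IL8 lies furthest to the left for both genes.

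Myeloid and inflammation genes were less closely related to either gene. CCL2, a monocyte chemoattractant, passed with FOXP3 (rho = 0.39) and IL10 (0.51), and TNF did so with 0.50 and 0.42. The rho of TNF with FOXP3 was -0.11 in the first batch and 0.52 in the later batch. With IL10 it was 0.29 and 0.38. IL12, a cytokine of antigen-presenting cells that favors T helper 1 responses, passed with IL10 (0.43). It had 0.26 with FOXP3, with which it passed by Pearson's r (0.38). Without the 2 tumors farthest from the FOXP3 median, Pearson's r of IL12 with FOXP3 was 0.16. The other 6 genes of the list, IL8, CXCL2, IL6, IL 18, KDM6B and CLEC4C, did not pass with either by rho, and CLEC4C passed with IL10 by Pearson's r (0.39). The median rho over the 9 genes was 0.11 for FOXP3 and 0.18 for IL10, below the medians over all 42 genes. IL8, the neutrophil chemokine, had the lowest value of any gene for both, -0.28 with FOXP3 and -0.37 with IL10 (permutation test, adjusted p = 0.191 and 0.0660), followed for FOXP3 by TGFb (-0.15) and SELP (-0.14) and for IL10 by CD274 (-0.16) and KDM6B (-0.12).

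FOXP3 had the higher rho in 31 of the 42 genes, but no single difference between FOXP3 and IL10 passed after adjustment. The difference in rho was largest, of the 9 genes compared, for CTLA4, at 0.25 (two-sided permutation test with the ranks of the 2 genes swapped within tumors, p = 0.0350, adjusted 0.306). It was 0.19 for PD-1 (p = 0.0680, adjusted 0.306) and 0.15 for CD3e (adjusted p = 0.546). CCL2 and IL6 leaned toward IL10, by 0.12 and 0.11, with adjusted p-values of 0.597 and 0.631.

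Most of these relations were not called on another scale. With equal medians over the immune genes, FOXP3 was related to 2 genes, PD-1 (rho = 0.53, permutation test, adjusted p = 0.0325) and TNFSF10 (-0.50, adjusted p = 0.0415). Its relation to PD-1 was the only one of the 20 that remained. IL10 was related to 4 genes, all inversely: CXCL2 (-0.60), GZMB (-0.60), CD27 (-0.54) and TBX (-0.51). CD27 and TBX had been positively related to IL10 on the housekeeping scale. The sample median that this rescaling removes ran from 7.45 to 10.02 across tumors, and IL10 before rescaling from 7.28 to 9.67. The part of that removal in the inverse relations of IL10 was not tested. The median rho of the T cell list went from 0.72 to 0.23 for FOXP3 and from 0.57 to -0.30 for IL10, and that of the checkpoint list from 0.56 to -0.15 and from 0.59 to -0.11.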

How the data were processed

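RNA of 34 tumors and 2 normal mucosa samples was counted on the nCounter panel. The authors normalized the counts to 4 housekeeping genes with the manufacturer's software, and the deposited values (signal, on a linear scale) were used as log2 without a pseudocount. Each sample's values were whole counts times 1 factor (1728 of 1728 values, tolerance 0.01), which gave counts and totals for depth. Count models were not used, since the deposited values are not raw counts and a panel of this size holds too few low values for the recovery to be checked by the rule applied here. A sample's background was the mean plus 2 SD of its 6 negative controls, and batches were divided at a positive-control ratio of 2.0.

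Groups came from the tissue label. Tumor and mucosa were compared with limma 3.58.1 (R 4.3.3), Benjamini-Hochberg adjusted over 44 immune genes. Fewer dogs (33) than samples (36) were studied, and samples of 1 dog cannot be matched through the labels, so p-values measure only the spread between these samples. With 2 mucosa samples, limma took the spread mostly from the tumors. No pair of tumors was closer than patients 33 and 34 (mean absolute difference 0.19, next pair 0.51), and these were also counted as 1. Relations across tumors used Spearman's rho and Pearson's r with 100000 permutations. The smallest p these can give is 1e-05. The 946 pairs of immune genes were tested by Spearman's rho with 20000 permutations. Ranks came from scipy 1.17.1. Differences relative to CD3e used exact permutation tests, and Poisson intervals are at 95%. The limma test and the permutation test of Spearman's rho were checked on simulated data, and the other tests were not.

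FOXP3 and IL10, the gene lists and the tests were chosen with earlier results of these data known. Genes named were FOXP3, IL10, the T cell, checkpoint and myeloid lists, the genes with the 5 highest and 3 lowest rho with each, and references. Other genes, among them those of the costimulation and cytotoxic lists, TBX and TNFSF10, were named after their values were seen. A few genes of the panel are left unnamed here and their own values are not given, but they remained in all tests and counts. Immunohistochemistry was not analysed here. Alternatives covered scaling, pseudocount, background, filter, batch, close samples, depth and single samples.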

Additional observations from a re-analysis of the deposited data

How the results depend on the processing

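FOXP3 was no longer called, with limma adjusted p-values, under equal medians (0.63), a housekeeping scale without SDHA (1.58, adjusted p = 0.0657), a pseudocount of 20 (1.52, adjusted p = 0.0621), the first batch only or batch as a term (1.15 in both), and without a mucosa sample (1.32 to 2.35). It was called in the other 10 alternatives, which include the exact permutation test with its unadjusted p of 0.0159. IL10 turned to -0.76 with equal medians, and was not called in any of the 17 settings. The number of immune genes called went from 15 to 9 in the first batch, 7 with batch as a term, and 4 to 7 without a mucosa sample. With equal medians 12 were called, 5 of them higher in tumors, against 14 of 15 on the housekeeping scale.

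With equal medians over the immune genes, rho was 0.081 for FOXP3 with IL10, 0.32 for FOXP3 with CD3e and -0.34 for IL10 with CD3e, and the numbers of related genes fell to 2 for FOXP3 and 4 for IL10. No other setting moved these numbers by over 1.5 times. In those settings they ran from 16 (later batch only) to 24 (Pearson's r) for FOXP3. For IL10 they ran from 14 to 22 in the same 2 settings. Omitting each tumor in turn, an alternative chosen after seeing the data, gave 0.64 to 0.75 for FOXP3 with IL10, 0.75 to 0.84 for FOXP3 with CD3e, 0.60 to 0.71 for IL10 with CD3e and 0.18 to 0.47 for FOXP3 with IL10 given CD3e. FOXP3 relative to CD3e turned to 0.013 with the mean of CD3e, CD27 and CD28 as reference, and ran from -1.08 to 0.024 without a mucosa sample. IL10 relative to CD3e lost its unadjusted call with that reference (-1.37, exact p = 0.0952), with CD8a (-1.69, exact p = 0.122), in the first batch (-1.27) and without a mucosa sample (-3.09 to -0.74). The cause of these changes was not tested. The edgeR test on recovered counts was not run, because a 48-gene panel holds too few low values for the recovery to pass the check set for it. No paired analysis was possible because the labels pair no tumor with a mucosa sample. Counts of 33 to 60 FOXP3 transcripts in the mucosa, and 2 mucosa samples in 1 batch, limit the comparison with mucosa.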

Other observations

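The tumor of patient 19 had the highest FOXP3 value of all tumors and the second highest IL10 value (9.55), with CD3e at 9.88, below its median of 10.31. ICOSLG (11.40) and IL12 (10.54) were also highest in this tumor, against medians of 9.09 and 6.42, and PD-1 (9.70) and CD40 (10.77) were at place 3. CTLA4 (8.47), ICOS (9.56) and CD8a (8.63) were each within 0.37 of their median. SELP, an adhesion molecule of platelets and endothelium, was lowest of all tumors in it (5.39 against a median of 7.82). So were TGFb (9.73 against a median of 11.56) and BCL6 (9.90 against a median of 11.03). The sample held 88279 counts over the 48 genes.

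The tumors of patients 33 and 34 had the highest CD3e values, 13.89 and 14.19. Their FOXP3 values were 9.15 and 9.20 and their IL10 values 9.40 and 9.31, so both genes were among the highest in absolute level and the lowest relative to CD3e. Counted as 1 tumor, they left the FOXP3 difference from mucosa called (1.78, limma adjusted p = 0.0364) and the rho of FOXP3 with IL10 at 0.64.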
